A study of Mus musculus with 6 samples.

Results

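RNA-seq of mouse hippocampus was used to follow 9 genes that encode negative feedback inhibitors of MAP kinase signaling: the dual-specificity phosphatase genes Dusp1, Dusp4, Dusp5, Dusp6 and Dusp14, the Sprouty genes Spry2 and Spry4, and the Sprouty-related genes Spred1 and Spred2. They were picked by gene symbol, and all 9 were found among the 16060 rows of the deposited table, each on 1 row. The control group (3 mice) received saline and the methamphetamine (MA) group (3 mice) received MA, both by intraperitoneal injection into adult male C57BL/6 mice. The MA doses were 5, 10 and 15 mg/kg in weeks 1, 2 and 3. Anxiety-like behavior was tested in both groups on day 22, and the animals were then sacrificed immediately, so all 6 hippocampi came from mice that had just been tested. Each library was read as coming from 1 mouse, which the paper does not state outright. No transgene or deletion was involved, and no gene in the table is fixed by the treatment, so the direction of every difference below rests on the names of the columns and would turn round if the names had been exchanged. The groups are therefore called the libraries labelled Control and the libraries labelled MA.

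When a growth factor, neurotrophin or synaptic calcium signal reaches a neuron or glial cell, Ras activates the kinases Raf, MEK and ERK in turn, and ERK phosphorylates targets in the cytoplasm and nucleus. Among the genes that ERK then switches on are inhibitors of the same pathway, which form a negative feedback loop. Dusp proteins remove phosphate from the threonine and tyrosine of the activation loop of MAP kinases, whereas Sprouty and Spred proteins act upstream, between the receptor and Raf. In the hippocampus several of these genes behave as activity-regulated genes, and their RNA is short-lived.

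Upstream sequences are shown for Dusp1, Dusp5 and Dusp6, because they are the members with the most negative differences between the groups. They are RefSeq sequences of GRCm38.p6, 5′ to 3′ on the strand of the gene, and stop where an annotated untranslated region of the GENCODE annotation begins. The stretch of Dusp1 lies on the minus strand at chr17:26508520-26508722, that of Dusp5 on the plus strand at chr19:53528895-53529108 and that of Dusp6 on the plus strand at chr10:99262981-99263230. Capitals mark the cAMP response element (TGACGTCA), its short form (TGACG, on either strand) and the CArG box, which is the core of the serum response element.
Dusp1: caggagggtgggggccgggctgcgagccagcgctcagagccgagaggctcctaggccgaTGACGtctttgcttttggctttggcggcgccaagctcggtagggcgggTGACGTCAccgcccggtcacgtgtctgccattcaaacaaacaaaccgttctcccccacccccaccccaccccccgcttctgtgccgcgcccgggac
Dusp5: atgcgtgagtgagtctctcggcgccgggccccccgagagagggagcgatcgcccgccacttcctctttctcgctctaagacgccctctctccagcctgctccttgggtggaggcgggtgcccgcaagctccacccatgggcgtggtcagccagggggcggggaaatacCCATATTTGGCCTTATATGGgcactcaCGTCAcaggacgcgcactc
Dusp6: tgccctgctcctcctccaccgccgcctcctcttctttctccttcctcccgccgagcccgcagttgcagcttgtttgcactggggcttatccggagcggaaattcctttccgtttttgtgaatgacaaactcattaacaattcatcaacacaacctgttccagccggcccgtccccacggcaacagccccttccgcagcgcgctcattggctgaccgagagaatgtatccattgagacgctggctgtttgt

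In these letters Dusp1 holds 1 full cAMP response element, which starts 143 bases before the annotated transcript start, and a separate short form at 191 bases. The full element also counts as a short form on each strand, so that the short form matched 3 times in all. Dusp5 holds 2 adjacent CArG boxes, CCATATTTGG and CCTTATATGG, which start 82 and 72 bases before the start, and 1 short form on the other strand at 55 bases. The window of Dusp6 holds none of these, and neither do those of Spry2, Spred1 and Dusp14. Spred2 holds 1 short form, at 51 bases. Over the 250 bases upstream of 32851 annotated mouse starts, 1.55% hold the full element, 17.8% the short form and 1.47% a CArG box. The AP-1 site (TGANTCA) was found in none of the 7 members with a sequence and in 6.75% of all starts, and the ETS core (GGAA, on either strand) in 6 of the 7 and in 93.4% of all starts. Dusp1 was the 1 without an ETS core. For Dusp4 and Spry4 no upstream sequence was at hand, so they were not searched. A match describes letters only.

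The values are those the authors deposited, named as RPKM and lying on a log scale, which was read as log2(RPKM + 1). Read totals are not given, so the depth of the libraries is unknown. All 6 libraries shared their highest value, as tables do that were normalized to 1 distribution. The library labelled MA replicate 3 stood apart: its mean Pearson correlation across tested genes with the others of its group was 0.978, against 0.984 and 0.985 for MA replicates 1 and 2 and between 0.991 and 0.993 for the libraries labelled Control. Of the 10 markers of hippocampal neurons, 10 were present and 10 had a lower mean in the libraries labelled MA, with a median log2 difference of -0.15 and 0 past the adjusted threshold. Their summed level was 319 to 405 RPKM in the libraries labelled Control and 301 to 335 RPKM in those labelled MA. Lower means were not particular to neuron markers. Of 6 astrocyte markers 6 had a lower mean, of 8 oligodendrocyte markers 7 and of 6 microglia markers 4. Their median log2 differences were -0.13, -0.26 and -0.12. Of 6 endothelium markers 6 had a higher mean, of 6 oligodendrocyte precursor markers 5 and of 6 mural cell markers 4. Their medians were 0.14, 0.13 and 0.13. No gene of these lists passed the adjusted threshold (limma). Of the 10 markers of choroid plexus epithelium, the tissue that secretes cerebrospinal fluid, 10 were higher in every library labelled MA than in every library labelled Control, and 5 passed the adjusted threshold (limma). Their summed level was 101 to 478 RPKM in the libraries labelled Control and 1931 to 5312 RPKM in those labelled MA, highest in MA replicate 3. The 5 blood markers summed to 1599 to 2024 RPKM and to 3319 to 4378 RPKM. Of the 8 markers of thalamus, the brain region next to the hippocampus, 8 had a higher mean in the libraries labelled MA, with a median log2 difference of 0.58, 0 past the adjusted threshold and 2 at an unadjusted p under 0.05 (limma). Their summed level was 29.5 to 39.6 RPKM in the libraries labelled Control, 76.8 and 97.4 RPKM in MA replicates 1 and 2 and 28.5 RPKM in MA replicate 3, so that here MA replicates 1 and 2 stood apart. The part of these tissues in the results below was not tested, and in whole hippocampus fewer cells of a type and less RNA per cell cannot be told apart.

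All 9 members were at 0.5 RPKM or more in all 6 libraries, so the filter on low values removed none. In the libraries labelled Control, Spred2 had the highest mean level of log2(RPKM + 1), at 4.70 ± 0.09 (SD, n = 3), and its libraries lay above all of Spred1, which followed at 4.46 ± 0.12. Spred1, Dusp14 (4.39 ± 0.26), Dusp6 (4.29 ± 0.26), Spry2 (4.22 ± 0.10), Dusp1 (4.16 ± 0.16) and Dusp5 (3.81 ± 0.29) came next, and neighbours in this order overlapped. Dusp4 at 2.67 ± 0.30 and Spry4 at 1.96 ± 0.07 were the lowest and overlapped neither each other nor Dusp5. In the libraries labelled MA the order of the means was the same except that Dusp14 passed Spred1 and Spry2 passed Dusp6.

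**Figure D1:**
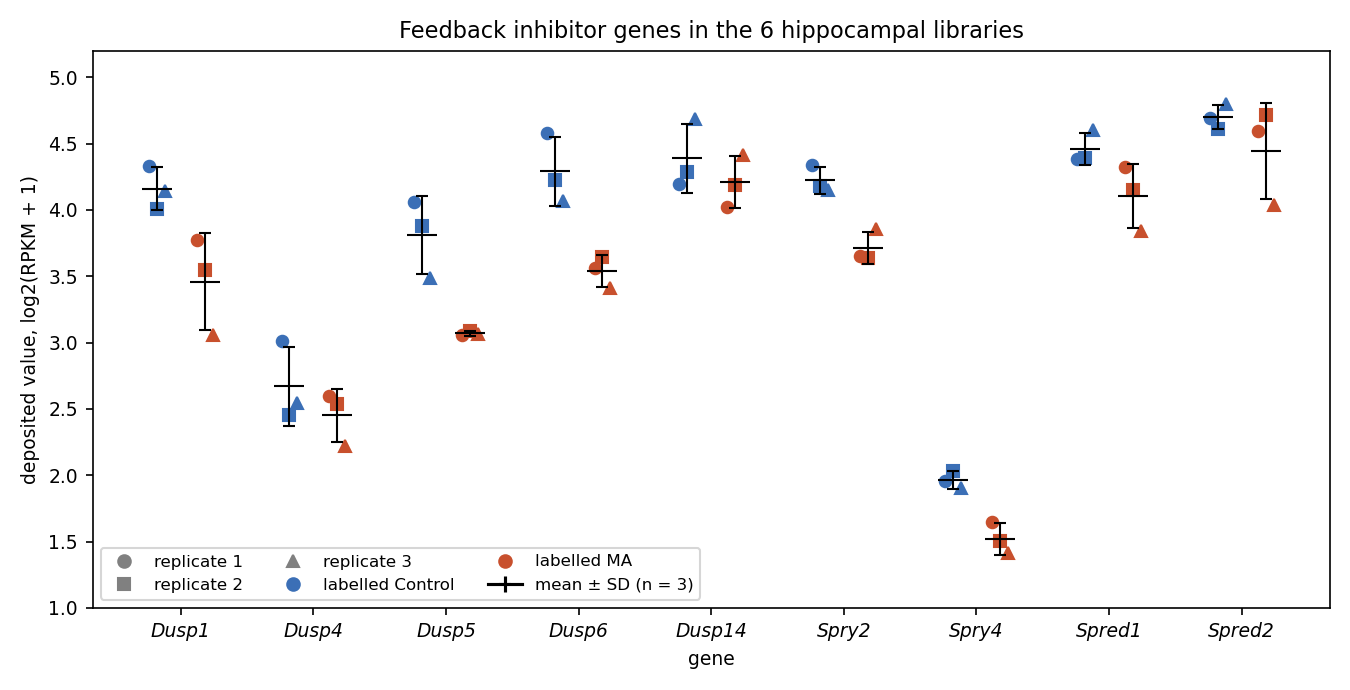
Deposited level, log2(RPKM + 1), of the 9 members in each library. Blue points are the libraries labelled Control and orange points those labelled MA, the shape gives the replicate number, and bars show the mean ± SD (n = 3). For Dusp1, Dusp5, Dusp6, Spry2, Spry4 and Spred1 every orange point lies below every blue one.

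The comparison of the libraries labelled MA with those labelled Control asks which genes differ after 3 weeks of escalating MA. The mean of all 9 members was lower in the libraries labelled MA, where 52.7% of all 13321 tested genes had a lower mean. Their median log2 difference (MA minus Control) was -0.44, beside -0.010 over all tested genes. In 6 of the 9, every library labelled MA lay below every library labelled Control, which held for 10.2% of all tested genes, while the opposite order held for 0 members and 7.32% of all tested genes. After Benjamini-Hochberg adjustment across the 13321 genes, 0 of the 9 had a limma p below 0.05, which 0.263% of all tested genes had in either direction and 0.0976% had as lower. At an unadjusted p under 0.05 (limma) 6 of the 9 were lower and 0 higher, beside 5.46% of all tested genes as lower and 10.4% in either direction.

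Dusp6 encodes a cytoplasmic phosphatase selective for ERK and is a classical readout of ERK activity. In GRCm38 the gene (ENSMUSG00000019960) spans bases 99263231 to 99267489 of chromosome 10, plus strand, with 4 exonic stretches. Its level on the log2 scale was 4.58, 4.22 and 4.07 in Control replicates 1, 2 and 3 and 3.56, 3.64 and 3.41 in MA replicates 1, 2 and 3. Control replicate 1 was the highest and the groups did not overlap, with a gap of 0.42 between the nearest libraries. Its log2 difference was -0.75 (standard error 0.14, 95% interval -1.09 to -0.41), and the adjusted p was 0.138 (limma). On the linear scale the mean was 18.8 ± 3.70 RPKM and 10.7 ± 0.94 RPKM (SD, n = 3 each), a ratio of 0.567. By its limma p, Dusp6 stood at rank 99 of 13321 genes, the nearest to the threshold among the members.

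Dusp5 encodes a nuclear phosphatase that binds, dephosphorylates and anchors ERK. It lies on chromosome 19 from 53529109 to 53542431 on the plus strand (ENSMUSG00000034765) and overlaps an annotated antisense gene. Whether counting used strand is not given in the sources used here, so its values may hold reads of that gene. Its log2 level was 4.06, 3.88 and 3.49 in Control replicates 1 to 3 and 3.06, 3.09 and 3.06 in MA replicates 1 to 3. The libraries labelled MA were nearly level with each other (SD 0.017), those labelled Control spread more (SD 0.29), and the groups did not overlap. For Dusp5 the log2 difference was -0.74 (standard error 0.15, 95% interval -1.08 to -0.39), with an adjusted p of 0.147 (limma) and a linear ratio of 0.560.

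Dusp1, also known as MKP-1, encodes a nuclear phosphatase that acts on p38 and JNK as well as on ERK and is induced by many stresses. It lies on chromosome 17 from 26505590 to 26562128 on the minus strand (ENSMUSG00000024190). The upstream stretch printed above lies inside this span, because it was taken before a RefSeq start within it. By whole spans, exons not being compared, 4 other annotated genes overlap Dusp1, Ergic1 on the opposite strand among them. The values of Dusp1 may therefore hold their reads. The study singled it out from these same libraries, so it is no independent evidence, and the sign of its difference here is only as sure as the column names, which nothing in the table checks. Its log2 level was 4.33, 4.01 and 4.14 in Control replicates 1 to 3 and 3.77, 3.54 and 3.06 in MA replicates 1 to 3. The groups did not overlap, and MA replicate 3 lay well below the other libraries labelled MA. This gave Dusp1 a log2 difference of -0.70 (standard error 0.19, 95% interval -1.14 to -0.27), with an adjusted p of 0.264 (limma). Without MA replicate 3 it was -0.50, with an adjusted p of 0.0840 (limma).

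Dusp4, a nuclear phosphatase related to Dusp1 (ENSMUSG00000031530, chromosome 8 from 34807297 to 34819894), had overlapping groups. Its log2 level was 3.01, 2.46 and 2.54 in Control replicates 1 to 3 and 2.59, 2.54 and 2.22 in MA replicates 1 to 3, so that Control replicate 1 alone stood above all libraries labelled MA. The log2 difference was -0.22 (95% interval -0.63 to 0.19, limma adjusted p = 0.727). Without Control replicate 1 it was -0.047.

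Dusp14 encodes an atypical phosphatase that lacks the MAP kinase binding domain of the other Dusp members here (ENSMUSG00000018648, chromosome 11 from 84048041 to 84069261). Its log2 level was 4.19, 4.28 and 4.69 in Control replicates 1 to 3 and 4.02, 4.19 and 4.41 in MA replicates 1 to 3. The groups overlapped, with Control replicate 3 above the rest. The log2 difference was -0.18 (95% interval -0.55 to 0.19, limma adjusted p = 0.751), and it was -0.030 without Control replicate 3. Dusp14 and Spry2 were the members that were highest, among the libraries labelled MA, in MA replicate 3.

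**Figure D2:**
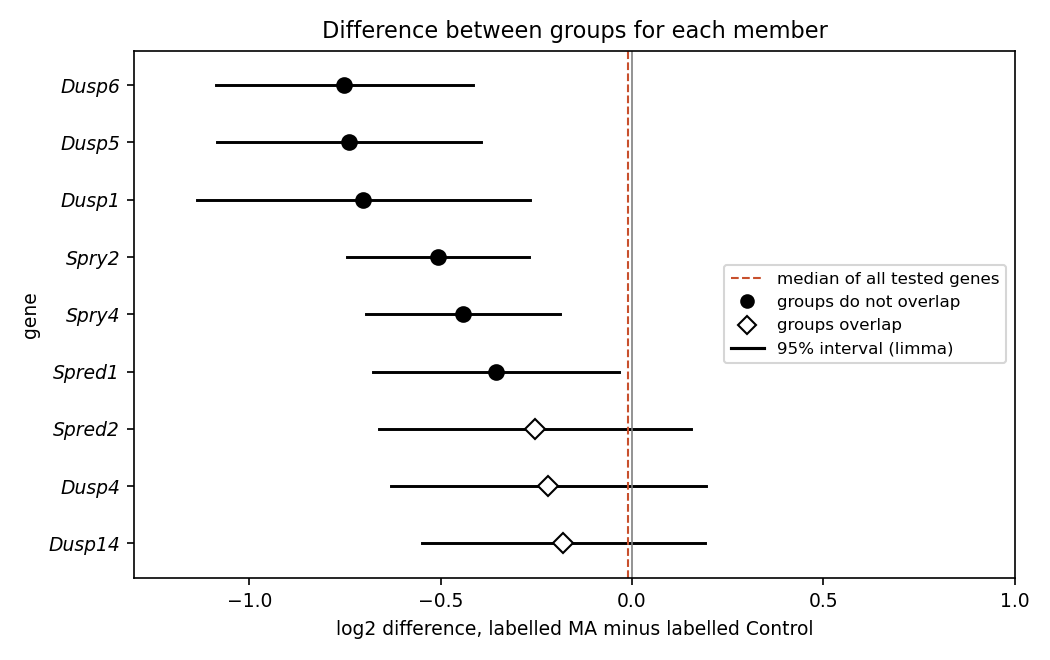
Log2 difference (libraries labelled MA minus libraries labelled Control) of each member with its 95% interval from limma. Filled circles mark the 6 members whose groups do not overlap, open diamonds the 3 whose groups overlap, and the dashed line the median of all tested genes at -0.010; the intervals of Spred2, Dusp4 and Dusp14 include 0.

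Spry2 encodes a Sprouty protein that restrains receptor tyrosine kinase signaling upstream of Ras and Raf (ENSMUSG00000022114, chromosome 14 from 105891947 to 105896819, minus strand). Its log2 level was 4.34, 4.18 and 4.15 in Control replicates 1 to 3 and 3.66, 3.64 and 3.85 in MA replicates 1 to 3. Both groups were tight and did not overlap, with SDs of 0.10 and 0.12. Spry2 had a log2 difference of -0.51 (standard error 0.10, 95% interval -0.74 to -0.27), with an adjusted p of 0.147 (limma) and a linear ratio of 0.687. Without MA replicate 3 it was -0.58, with an adjusted p of 0.0346 (limma), and Spry2 was then the only member past the threshold, which 0.743% of all tested genes passed as lower in that fit.

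Spry4, a second Sprouty gene, on chromosome 18 (ENSMUSG00000024427), had the lowest level of the 9. Spry4 overlaps 2 annotated genes on the opposite strand, whose reads its values may hold. In linear units it was 2.89, 3.09 and 2.73 RPKM in Control replicates 1 to 3 and 2.14, 1.83 and 1.66 RPKM in MA replicates 1 to 3, without overlap. Its log2 difference was -0.44 (standard error 0.11, 95% interval -0.70 to -0.19, limma adjusted p = 0.236). The offset of 1 in the deposited scale understates the difference of so low a gene, and with a pseudocount of 0.1 the log2 difference was -0.61.

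Spred1 encodes a membrane-bound inhibitor that recruits the Ras GTPase-activating protein neurofibromin (ENSMUSG00000027351, chromosome 2 from 117121374 to 117182279). In linear units it was 19.9, 20.04 and 23.2 RPKM in Control replicates 1 to 3 and 19.0, 16.7 and 13.3 RPKM in MA replicates 1 to 3. The groups did not overlap, but only 0.061 on the log2 scale separated the nearest libraries. The log2 difference was -0.35 (standard error 0.14, 95% interval -0.68 to -0.03, limma adjusted p = 0.437), and without MA replicate 3 it was -0.22.

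Spred2, its close relative (ENSMUSG00000045671, chromosome 11 from 19924375 to 20024026), was 4.69, 4.61 and 4.80 in Control replicates 1 to 3 and 4.59, 4.72 and 4.03 in MA replicates 1 to 3 on the log2 scale. MA replicates 1 and 2 lay among or next to the libraries labelled Control, and MA replicate 3 far below. The log2 difference was -0.25 (95% interval -0.66 to 0.16, limma adjusted p = 0.680), and it was -0.047 without MA replicate 3. The exact two-sided permutation test gave p = 0.1 for each of the 6 members whose groups do not overlap, the smallest p that 3 libraries against 3 allow. It gave p = 0.5 for Dusp4 and p = 0.4 for Dusp14 and Spred2 (exact permutation test, two-sided).

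**Figure D3:**
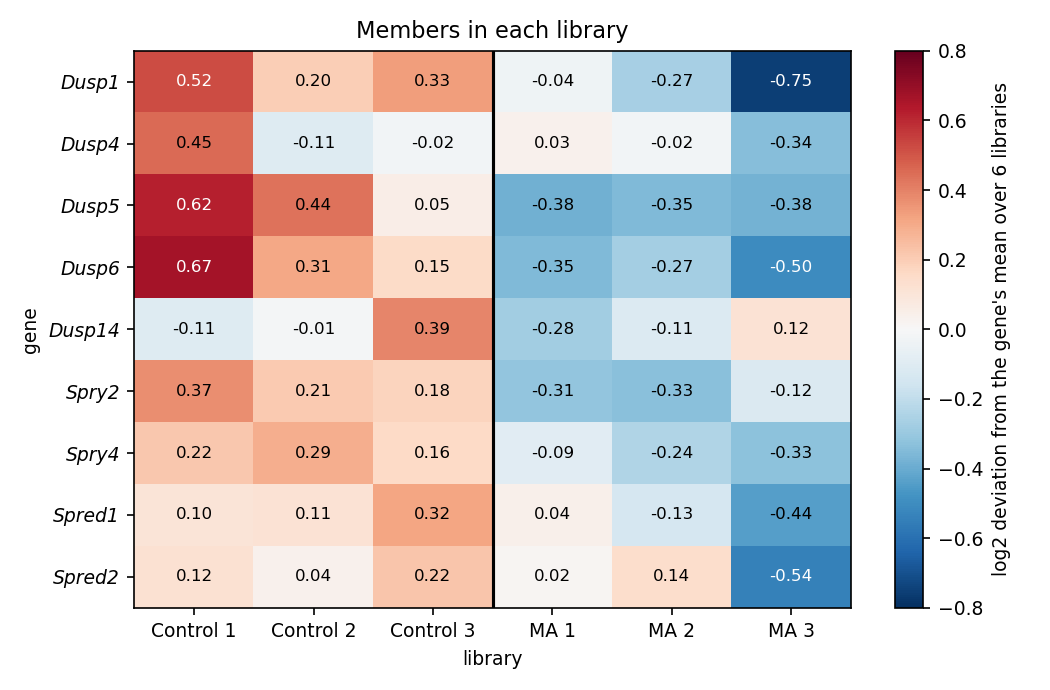
Deviation of each member from its own mean over the 6 libraries, on the log2 scale, with libraries labelled Control left of the line and those labelled MA right of it. Control replicate 1 holds the highest value of 5 members and MA replicate 3 the lowest of 6, beside 2336 and 3964 of all 13321 tested genes.

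Control replicate 1 was the highest library for 5 members (Dusp1, Dusp4, Dusp5, Dusp6 and Spry2), Control replicate 3 for Dusp14, Spred1 and Spred2, and Control replicate 2 for Spry4. Control replicate 1 was also the highest in the mean log2 level of the 10 hippocampal neuron markers, at 5.02, beside 4.70 to 4.74 in the other libraries labelled Control, and the part of this in the members' values was not tested. MA replicate 3 was the lowest for Dusp1, Dusp4, Dusp6, Spry4, Spred1 and Spred2. Of all 13321 tested genes, Control replicate 1 was the highest library for 2336. MA replicate 3 was the lowest library for 3964 of them and the highest for 3415, so its extremes were not particular to the members. As a measure of likeness, the root mean square difference between log2 profiles over the 6 libraries was taken after each gene's mean was subtracted. Dusp5 and Dusp6 were the most alike of the 36 pairs of members, at 0.093, followed by Spred1 and Spred2 at 0.130. Dusp1 and Dusp14 were the least alike, at 0.461.

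Among all other tested genes, the profile most like that of Dusp6 was Dusp5, and next came Dnajb5 at 0.111, Nr4a3 at 0.112, Gadd45b at 0.112 and Pdia6 at 0.121. For Dusp5 they were Pgm1 at 0.089, Dusp6 at 0.093, Cyp26b1 at 0.117, then Gadd45b, and Adgre5 at 0.128. The median over all tested genes was 0.430 for Dusp6 and 0.426 for Dusp5. Gadd45b was on both lists, with a log2 difference of -0.90 (limma adjusted p = 0.0315). The 6 libraries share 1 normalization, and these values describe them only.

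For comparison, the 12 immediate early genes on a marker list, which neurons switch on within minutes of activity, all had every library labelled MA below every library labelled Control, with a median log2 difference of -1.34. Their range was -1.80, for Arc, to -0.45, for Btg2, while the members whose groups do not overlap lay between -0.75 and -0.35. Of the 12, 7 passed the adjusted threshold (limma), among them Fos at -1.61 and Egr1 at -1.46. The study singled out several of these genes from the same libraries, and their sign here, like that of the members, is only as sure as the column names.

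The other MAP kinase phosphatases had 5 tested genes, 4 of them lower in mean in the libraries labelled MA and 0 past the adjusted threshold, with a median log2 difference of -0.32. Dusp10, which acts mainly on JNK and p38, had a difference of -0.32 and Dusp2, a nuclear phosphatase best known from immune cells, -0.33. Both had groups that do not overlap (limma adjusted p = 0.452 and 0.482). For Dusp2 the nearest libraries almost met, with Control replicate 2 at 0.76 and MA replicate 2 at 0.74 on the log2 scale. Dusp2 is lower in level than Spry4, and a pseudocount of 0.1 gave -0.71. Dusp7, a cytoplasmic ERK phosphatase, was at -0.32 with overlapping groups, MA replicate 3 being the highest of its 6 libraries. Without MA replicate 3 Dusp7 was at -0.56 and passed (limma adjusted p = 0.0274), and without MA replicate 2 it was at -0.17. Dusp16, a phosphatase of JNK and p38, was at -0.14 with overlapping groups. Of the atypical Dusp phosphatases, 4 of 11 were lower in mean, with a median of 0.062, and Dusp23 at 0.29 (limma adjusted p = 0.458) was higher in every library labelled MA. Dusp11, Dusp12 and Dusp28 followed by p at -0.27, -0.19 and 0.13, with overlapping groups. Spry3, Spred3 and Spry1, the remaining genes of the Sprouty and Spred families, had differences of -0.32, 0.067 and 0.018, and their limma adjusted p-values were 0.461, 0.878 and 0.979.

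Inhibitors of the ERK pathway outside these families had 18 tested genes, 10 lower in mean and 0 past the adjusted threshold (limma, with 3 at an unadjusted p under 0.05), with a median of -0.024. Rasa3, a Ras and Rap GTPase-activating protein, was 4.21 ± 0.05 and 3.86 ± 0.05 (SD, n = 3 each) on the log2 scale, a difference of -0.35 (limma adjusted p = 0.219) with groups that do not overlap. Errfi1, an inducible inhibitor of the EGF receptor, was at -0.32 and the ubiquitin ligase gene Cblb at -0.23 (limma adjusted p = 0.406 and 0.457), and Rgs14, a signaling scaffold of hippocampal area CA2, at -0.44 with overlapping groups, or -0.26 without MA replicate 1.

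Next came the cascade that these inhibitors restrain. Of the 10 Raf, MEK and ERK kinase genes, 6 were lower in mean, the median was -0.034, and 0 passed the adjusted threshold or an unadjusted p under 0.05 (limma). Araf was at 0.18. Mapk3, which encodes ERK1, was at 0.10 and Lamtor3, a scaffold for MEK on late endosomes, at -0.15. Of the 13 genes of the JNK, p38 and ERK5 branches, 4 were lower, with a median of 0.051, and 0 passed either threshold; the 4 with the smallest p, Map2k6, Mapk14, Mapk13 and Mapk9, were at 0.23, -0.11, -0.28 and 0.11. Of the 8 kinases downstream of ERK, 2 were lower, with Mknk2 at -0.25 (limma adjusted p = 0.417) and Rps6ka3 at -0.27 (-0.11 without MA replicate 3), and Rps6ka4 and Mknk1 were at 0.22 and 0.19.

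Upstream, 9 of 16 genes of a growth factor list were lower in mean, with a median of -0.058. Not all genes of this list encode secreted receptor ligands. Of the 16, 0 passed the adjusted threshold (limma, 3 at an unadjusted p under 0.05). Bdnf, the activity-regulated ligand of TrkB, was at -0.36 and Fgf9 at -0.31, both with groups that do not overlap (limma adjusted p = 0.354 and 0.339). Vgf, a secreted neuropeptide precursor, was at -0.19, or -0.096 without MA replicate 3. Of 13 receptors 4 were lower, with a median of 0.062 and 0 past the adjusted threshold. The 3 receptors with the smallest p had a higher mean in the libraries labelled MA: the FGF receptor gene Fgfr3 at 0.62, the TrkC gene Ntrk3 at 0.35 and Pdgfra, a marker of oligodendrocyte precursors, at 0.47 (limma adjusted p = 0.219, 0.219 and 0.423), whereas Fgfr1 was at -0.23. Without MA replicate 3, Fgfr3 at 0.78 and Pdgfra at 0.67 passed (limma adjusted p = 0.0172 and 0.0328). Of 19 adaptor and Ras genes 10 were lower, with a median of -0.053 and 0 past the adjusted threshold. The adaptor Shc2 was at 0.36 (limma adjusted p = 0.219) and Shc1 at 0.32, while the small GTPase gene Rap1a was at -0.33 and Rasgrp1, an activator of Ras, at -0.34, or -0.16 without MA replicate 3.

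The nuclear factors and targets of ERK had 18 tested genes, 13 lower in mean, with a median of -0.23, and 9 with every library labelled MA below every library labelled Control. Fos and Egr1 had negative log2 differences (MA minus Control, by the column names) and passed the adjusted threshold (limma adjusted p = 0.0315 and 0.0181). Fos missed it without Control replicate 1, 2 or 3 or MA replicate 2, and Egr1 without Control replicate 2 or 3 or MA replicate 2, with adjusted p-values of at most 0.115 (limma). Etv5, an ETS factor induced by FGF signaling through ERK, was 4.49 ± 0.08 and 3.92 ± 0.23 (SD, n = 3 each) on the log2 scale, a difference of -0.57 (limma adjusted p = 0.204). Ier2 was at -0.75 (limma adjusted p = 0.203), and at -0.90 without MA replicate 3, where it passed (limma adjusted p = 0.0375). Beside Fos and Egr1, 0 genes of the 12 pathway lists, the 9 members included, passed the adjusted threshold in either direction.

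**Figure D4:**
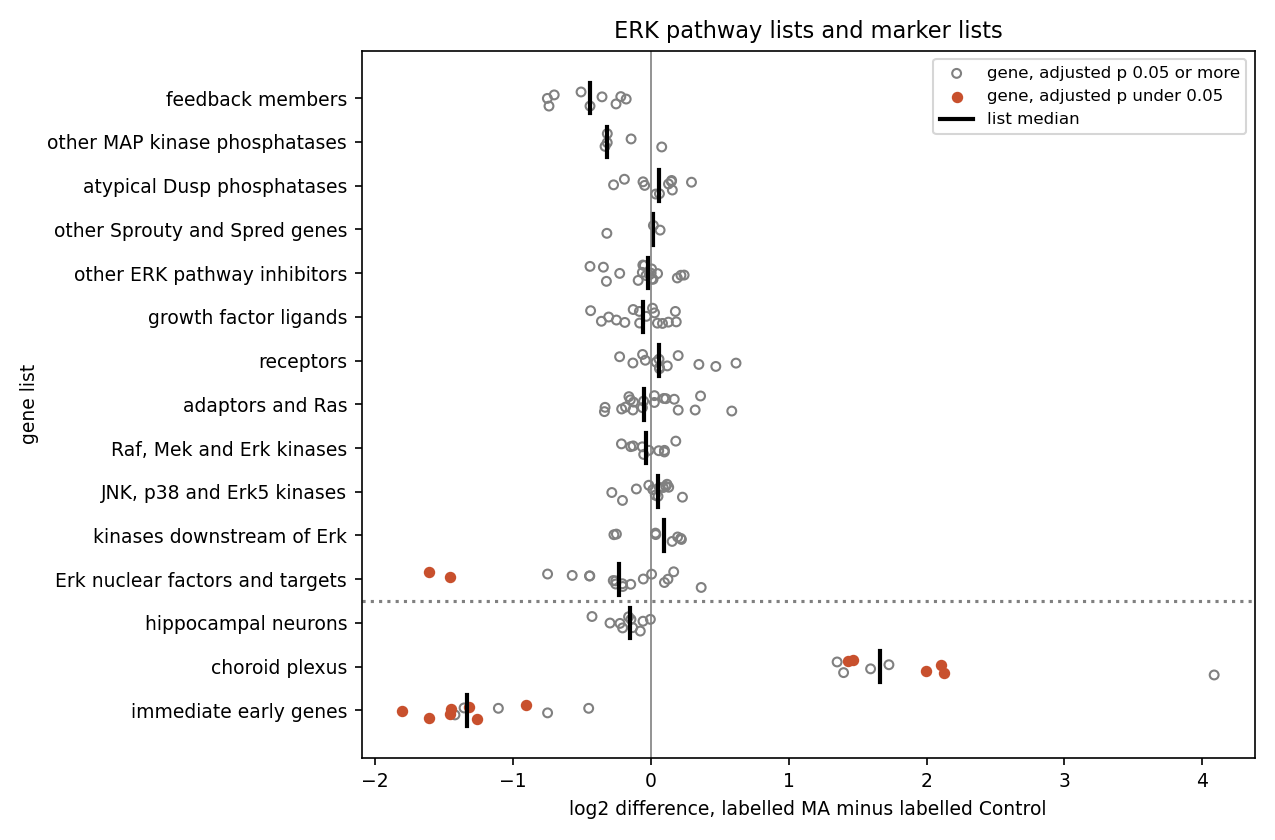
Log2 difference (libraries labelled MA minus libraries labelled Control) of every tested gene of the pathway lists, above the dotted line, and of 3 marker lists below it. Each point is a gene, orange where the limma adjusted p is under 0.05, and black bars are list medians; the 9 members lie between -0.75 and -0.18 with a median of -0.44, and the Raf, Mek and Erk kinases are centred at -0.034.

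Because the 10 hippocampal neuron markers were also lower in mean, the members were set against them by subtracting the mean log2 level of these markers from each library, a scaling chosen after the data were seen. It moved the median of all tested genes by 0.17. On this scale Dusp6, Dusp5 and Dusp1 had log2 differences of -0.58, -0.57 and -0.53, Spry2 and Spry4 of -0.33 and -0.27, Spred1 and Spred2 of -0.18 and -0.080, Dusp4 of -0.045 and Dusp14 of -0.0062. All 9 kept a negative sign and 0 passed the adjusted threshold (limma), with adjusted p-values from 0.138 to 0.990.

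**Figure D5:**
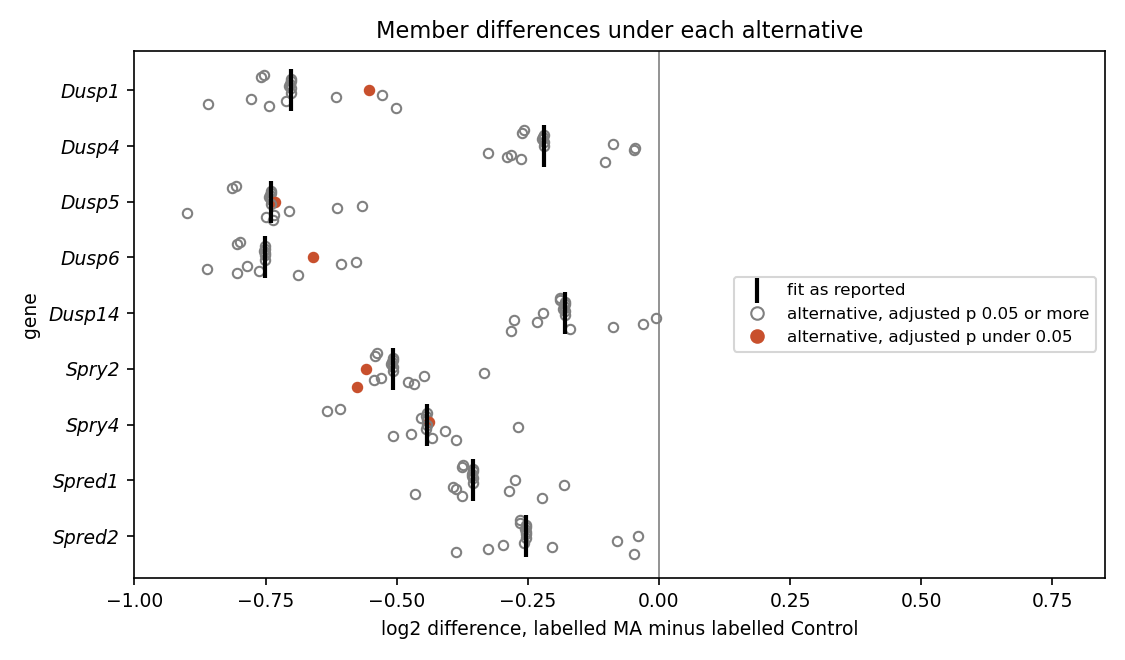
Log2 difference of each member in the fit as reported (black bar) and under each alternative setting (circles), filled where the limma adjusted p is under 0.05. No circle lies above 0, and filled circles occur for Dusp1, Dusp5, Dusp6, Spry2 and Spry4.

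Calls differed when the libraries were weighted by quality. With limma's sample quality weights, MA replicate 3 received a weight of 0.194, MA replicate 2 one of 2.45, Control replicate 2 one of 1.82 and the others between 0.937 and 1.18. All weights changed at once, and leaving out MA replicate 3 alone gave 1 call (Spry2). Under these weights 5 of the 9 members were below the adjusted threshold and lower: Spry2 (adjusted p = 0.0143), Dusp5 (0.0315), Dusp6 (0.0334), Spry4 (0.0409) and Dusp1 (0.0471), all from limma. Of all tested genes, 2.05% were called lower in that fit. The log2 differences were -0.56, -0.73, -0.66, -0.44 and -0.55 in the same order. Calls under these weights were not particular to the members. Among related genes, Dusp7, Dusp10 and Rasa3 also passed as lower (limma adjusted p = 0.0345, 0.0443 and 0.0297). Dusp2, Dusp16, Spry3 and Errfi1 did not pass.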

How the data were processed

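Hippocampal RNA of 3 control and 3 MA mice was sequenced. According to the paper's methods, Hisat2 was the aligner for the paired-end reads, featureCounts the counter, and FPKM was derived from gene length. The submitters' processing notes also name Bowtie 0.12.2 and the builds mm8 and mm9 without a role, and the labels name other RNA and library kits than the paper. Whether counting used strand is not given in the sources used here. The authors deposited a table whose name says RPKM. It was read as log2 values with an inferred offset of 1, normalized to 1 distribution, and neither step is described. The replicates were read as separate mice.

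The deposited log2 values were tested in limma 3.58.1 (R 4.3.3; lmFit, eBayes with trend, Benjamini-Hochberg) over the 13321 genes at 0.5 RPKM or more in at least 3 of 6 libraries, without covariates. The test was checked on simulated data with changes larger than those of the members and no library set apart. The check therefore does not measure power for the members. Single genes were tested by exact two-sided permutation (scipy 1.17.1). RPKM values are back-transformed. Gene locations are from GENCODE M21 on GRCm38, and overlaps were taken between whole gene spans, not exons.

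The members and the pathway and marker lists were chosen with earlier results of these data known. Beside the 9 members, up to 4 tested genes of each pathway list with the smallest p, any past the threshold, and the 5 genes most like each of the 2 members with the smallest p are named, except that some items are not reported here. Arc and Btg2, the ends of the immediate early gene list, were named after their values were seen. Alternatives were other pseudocounts, filters, scalings and variance models, a replicate block, leaving out each library and a scaling to neuron markers that was added after the data were seen.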

Additional observations from a re-analysis of the deposited data

How the results depend on the processing

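In every alternative tried, all tested members had a negative log2 difference, and their median stayed between -0.54 and -0.27. The number of members past the adjusted threshold was 0 except for 5 with sample quality weights and 1 (Spry2) without MA replicate 3. Leaving out each library in turn gave from 0 to 1. The number of all tested genes past it was 35 and moved to 20 with a minimum mean of 5 (where Dusp4 and Spry4 were not tested), 3 with no filter, 586 with sample quality weights, 15 with the replicate block and 109 with neuron marker centring. Leaving out each library gave from 0 to 257, the most without MA replicate 3. Across genes, deviations from the group mean correlated negatively between same-numbered libraries (r of -0.197, -0.242 and -0.337 for replicates 1, 2 and 3). With 3 libraries a group, these values cannot settle whether same-numbered libraries were handled together. With the replicate block, 0 members passed, Dusp6 had the smallest adjusted p at 0.272 (limma), and no call of a member changed. With neuron marker centring Dusp16, Lamtor3 and Mapk14 reversed to 0.0293, 0.0266 and 0.0677, and leaving out single libraries moved Spry1 between -0.0612 and 0.143, below 0 at -0.0280, -0.0491 and -0.0612. The cause was not tested. Fos lost its call with no filter and Fos and Egr1 lost theirs in 4 and 3 of the 6 fits without 1 library. The 3 mice a group limit the precision, and the depth is unknown.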
